A study of Mus musculus with 13 samples.

Results

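Cyclins, cyclin-dependent kinases (CDKs) and the proteins that license, copy and package DNA were followed in mouse whole brain hemispheres. The members are all probe sets, that is sets of short probes reading 1 transcript, whose annotation names a single gene with a symbol beginning Ccna, Ccnb, Ccnc, Ccnd, Ccne, Ccng, Ccnh, Ccni, Ccnt, Cdk, Cdc or Mcm with a digit, Pola, Pold or Pole, Orc or Smc. This gave 111 of the array's 12488 probe sets, for 86 of the 8251 genes that have a probe set of their own. The prefixes also took in some genes of other function. Among them are Ccnb1ip1, Ccndbp1, Cdkn2aipnl, Mcm3ap, Cdc123, the Cdc42 group, and Smcp, a sperm mitochondrial protein. Of the 111 probe sets, 77 for 66 genes (69.4%) were bright enough to be tested, against 7453 of all 12422 gene probe sets, and the other 34 are described by their levels.

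The samples were 13 Affymetrix arrays in 4 groups. There were 3 arrays from R6/2 mice given the triple treatment, 4 from untreated R6/2 mice, 3 from wild type mice given the triple treatment and 3 from untreated wild type mice. R6/2 mice model Huntington's disease through a transgene holding exon 1 of human huntingtin with an expanded CAG repeat. The triple treatment is tacrine, a cholinesterase inhibitor (2.7 mg/kg/day, begun at 5 weeks), moclobemide, an inhibitor of monoamine oxidase A (10 mg/kg/day), and creatine (1% in wet mash). These drugs stand in the description of every sample, untreated ones included, so only the titles assign treatment. Harvest at 8 weeks is stated for untreated wild type array 2 only, the lot number of treated R6/2 array 1 equals that of untreated R6/2 array 4, and strain, sex and scan batch are not given. Since the labels do not say that each array is a separate animal, p-values measure the spread between these samples, which may be technical. In whole hemispheres, fewer cells of a type and less RNA per cell cannot be told apart.

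A dividing cell uses D and E cyclins with their kinases to leave the G1 phase, loads the MCM helicase onto origins marked by the origin recognition complex (ORC), copies DNA with polymerases alpha, delta and epsilon, and packs and holds its chromosomes with SMC proteins, the ATPases of condensin and cohesin. Most adult brain cells are neurons and glia that have left the cycle. Several of these families keep other work there, such as Cdk5, a kinase of neurons switched on by its partner Cdk5r1 rather than by a cyclin, and Cdk9 and cyclin T1, which release paused RNA polymerase II.

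The promoters of the members that passed the genotype test over both treatment arms are shown because many cell cycle genes share short promoter words. Each line holds the 250 bases before the RefSeq start on mouse build GRCm38.p6, read 5′ to 3′ on the gene's strand. Cdkl2 lies at chr5:92043043-92043292 on the minus strand, Smc2 at chr4:52438971-52439220 on the plus strand, Mcm5 at chr8:75109259-75109508 on the plus strand and Pole4 at chr6:82652875-82653124 on the minus strand. Cdkl2 and Pole4 have 2 listed starts each, of which the first is shown, and the fifth such gene is Smc4. Capitals mark TTTCCCGC and TTTGGCGC, 2 forms of the word that E2F factors bind, TTTGAA, the core of the cell cycle homology region, and CCAAT, the box bound by NF-Y, each searched on both strands.
Cdkl2: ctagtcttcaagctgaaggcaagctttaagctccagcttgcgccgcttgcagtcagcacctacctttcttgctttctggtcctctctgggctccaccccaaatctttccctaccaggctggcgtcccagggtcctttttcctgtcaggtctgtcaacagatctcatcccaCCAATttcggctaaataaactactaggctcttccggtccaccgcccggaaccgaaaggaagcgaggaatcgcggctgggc
Smc2: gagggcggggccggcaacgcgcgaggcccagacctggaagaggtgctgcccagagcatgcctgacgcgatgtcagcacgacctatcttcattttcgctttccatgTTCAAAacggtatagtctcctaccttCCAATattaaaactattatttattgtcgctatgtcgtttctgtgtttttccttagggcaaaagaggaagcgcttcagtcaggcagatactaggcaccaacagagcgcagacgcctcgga
Mcm5: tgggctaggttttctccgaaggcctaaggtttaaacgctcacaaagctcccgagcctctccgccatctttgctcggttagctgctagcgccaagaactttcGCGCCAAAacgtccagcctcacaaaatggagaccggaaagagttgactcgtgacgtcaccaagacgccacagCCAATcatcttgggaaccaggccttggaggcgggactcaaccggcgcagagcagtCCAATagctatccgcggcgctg
Pole4: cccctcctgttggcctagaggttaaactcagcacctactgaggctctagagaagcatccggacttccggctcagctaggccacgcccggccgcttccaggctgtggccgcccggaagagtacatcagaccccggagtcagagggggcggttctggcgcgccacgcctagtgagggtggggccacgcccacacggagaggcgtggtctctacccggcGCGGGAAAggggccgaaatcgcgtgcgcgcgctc
The Mcm5 window held TTTGGCGC on the opposite strand, 149 to 142 bases before the start, and CCAAT at 77 to 73 and at 22 to 18 bases. Pole4 held TTTCCCGC on the opposite strand at 34 to 27 bases. Smc2 held TTTGAA on the opposite strand at 145 to 140 bases and CCAAT at 119 to 115 bases, and Cdkl2 held a single CCAAT at 80 to 76 bases. Of the 91 windows of the 75 member genes in the table, 10 (10.99%) held either E2F word, against 1.3% of all 32851 windows, 14 (15.38%) held TTTGAA against 15.99%, and 42 (46.15%) held CCAAT against 33.85%. A match is a match of letters and says nothing about binding in these samples.

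A pair of array properties is given before the genotype values, of which those under treatment use the untreated R6/2 arrays only through the shared spread. Untreated R6/2 arrays 2 and 3 stood apart on the first principal component, which took 33.9% of the variance, at 25.4 and 45.7, with the other 11 arrays between -14.7 and 4.09. The deposited values of all 66 control probe sets on untreated R6/2 arrays 2, 3 and 4 were 1.2 times those on treated R6/2 array 1, treated R6/2 array 3 and untreated R6/2 array 1 (within 0.05 signal units), whereas gene probe sets matched that way in 0.507% to 0.716% of cases. The median within-group SD of the tested members was 0.17 in treated R6/2, 0.30 in untreated R6/2, 0.19 in treated wild type and 0.16 in untreated wild type arrays on the log2 scale. In 27 of the 77 members (35.1%, against 28% of all tested probe sets) arrays 2 and 3 both lay outside the range of the other 11, above it in 14 (18.2%, against 15.3%) and below it in 13 (16.9%, against 12.7%). The calls between genotypes are therefore given with all arrays and without these 2.

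Markers of 8 cell classes were read in the same arrays. The summed signal of 5 neuron markers was 6344 to 6824.3 for treated and 5870.1 to 7098.4 for untreated R6/2 arrays, against 6713.9 to 7669.4 for treated and 7088.1 to 7518.4 for untreated wild type arrays. Of these markers Eno2, the neuronal enolase, was lower in untreated R6/2 mice (-0.37 ± 0.10 on the log2 scale, SE, limma adjusted p = 0.0343) and over both arms (-0.29, adjusted p = 0.031). Without untreated R6/2 arrays 2 and 3 it was at -0.23 (adjusted p = 0.158) and -0.22 (adjusted p = 0.0391). The synaptic vesicle protein Syt1 was at -0.70 in untreated mice (adjusted p = 0.0811), and Snap25, of the vesicle fusion machinery, at 0.05.

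The summed signal of 4 oligodendrocyte markers was 2186.9 to 3085.1 for treated and 1882.9 to 2417.3 for untreated R6/2 arrays, against 3346.6 to 3750.7 for treated and 3218.5 to 3727 for untreated arrays of wild type mice. Mbp, Mobp and Mag passed as lower in untreated R6/2 mice, of which Mobp alone passed without untreated R6/2 arrays 2 and 3 (-0.92, adjusted p = 0.0353). Over both arms Mbp and Mobp passed with all arrays (adjusted p = 0.0243 and 0.0029). They also passed there without those arrays (-0.38 and -0.89, adjusted p = 0.0126 and 0.0021), whereas Mag and Mog passed neither way. For 4 astrocyte markers the sum was 1625.5 to 1937.9 for treated and 1525.3 to 1816.6 for untreated R6/2 arrays, against 1938.5 to 2361.5 for treated and 2079.3 to 2099.7 for untreated wild type arrays. Slc1a2 and Aldoc passed as lower in untreated R6/2 mice, and neither did without those arrays (adjusted p = 0.236 and 0.182). Over both arms Aldoc passed with all arrays (-0.40, adjusted p = 0.0213) and without those arrays (-0.37, adjusted p = 0.0457), whereas Slc1a2 did not. Aldoc, at 1084.4 to 1905.7, made up the largest part of the astrocyte sum. In untreated mice Gfap was at 0.23 and Aqp4 at -0.24, neither called. Blood markers summed to 927.5 to 2146.3 for treated and 904.4 to 1871.9 for untreated R6/2 arrays, against 995.2 to 1650 for treated and 1979.4 to 3524.7 for untreated wild type arrays. Alas2, 1 of the 3, passed as lower in untreated R6/2 mice (-1.52, adjusted p = 0.0302), and was at -1.41 without arrays 2 and 3 (adjusted p = 0.14). The summed signal of 5 endothelium markers did not overlap between genotypes in either arm, at 261.1 to 312.8 for treated and 269.6 to 296 for untreated R6/2 arrays, against 231.8 to 253 for treated and 224.5 to 262.8 for untreated wild type arrays, although none of the 5 passed by itself. Of all tested probe sets taken singly, 26.2% did not overlap between untreated and 16.8% between treated groups. In untreated mice Pecam1, Cdh5, Tek and Flt1 were at 0.38, 0.61, 0.50 and 0.17, and Cldn5 at -0.20. Over both arms Pecam1 was at -0.09 and the others at 0.16 to 0.51. No microglia marker passed, at sums of 439.5 to 629.2 over the 13 arrays.

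Markers of progenitors and immature neurons summed to 624 to 766.8 for treated and 613.6 to 793.6 for untreated R6/2 arrays, against 574.4 to 742 for treated and 523.8 to 588.6 for untreated arrays of wild type mice. Of the 6 tested ones Sox11 was higher in untreated R6/2 mice (0.76 ± 0.19, adjusted p = 0.0222), or 0.73 without arrays 2 and 3 (adjusted p = 0.112), while Mki67, which marks cycling cells, was not called (0.43, adjusted p = 0.204). Nes went the other way (-0.72, adjusted p = 0.297), and was at -0.02 without arrays 2 and 3. Sox2, Dcx and Dlx2 were at 0.47, 0.23 and 0.15, none called. Sox2, at 265.4 to 489.5, made up the largest part of the sum. Top2a, needed in mitosis, read 1.3 to 3.4 in all 13 arrays, and the mitotic kinase Cdk1 read 2.4 to 5.9. Lymphocyte markers Cd3e, Cd3g and Ptprc stayed at or below 12.8, although the 1 tested lymphocyte probe set, Rag1, was higher in untreated R6/2 mice (1.66, adjusted p = 0.0108, and 1.78 without arrays 2 and 3, adjusted p = 0.049). The part of these cell types in the differences below was not tested.

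Genotype was compared first in untreated mice. At an adjusted p below 0.05, 5 members were higher and 5 lower in R6/2 hemispheres, 10 of 77 (13%) against 11.9% of all 7453 tested probe sets (5.49% higher, 6.41% lower). Higher were the condensin subunits Smc2 and Smc4, the polymerase epsilon subunit Pole4, the CDK-like kinase Cdkl2 and cyclin I (Ccni). Lower were Cdk5, its activator Cdk5r1, the kinase chaperone Cdc37, the ubiquitin-conjugating enzyme Cdc34 and Cdc42ep4, an effector of the GTPase Cdc42. The share called was close to that of all probe sets, and the members' median difference was 0.01 against 0.04 for all tested (log2, R6/2 minus wild type). Without untreated R6/2 arrays 2 and 3 no member passed, against 2.19% of all probe sets, and 22 members passed at an unadjusted p below 0.05 with all arrays, 28.6% against 30.2%.

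Averaged over both treatment arms, 5 of 77 members (6.49%, against 6.61% of all tested) passed. All 5 were higher in R6/2 mice, where 2.58% of all probe sets were higher and 4.04% lower. They were Cdkl2, Smc2, Mcm5, Pole4 and Smc4. Without untreated R6/2 arrays 2 and 3, where 5.68% of all tested probe sets passed, the members that did were Cdkl2, Smc2, Mcm5 and Cdc25a, the phosphatase that activates CDKs (0.37, limma adjusted p = 0.0468, against 0.33 and 0.0701 with all arrays). A second Cdc25a set, 97389_at, was too dim to test at 2.3 to 4.6. Cdkl2, Mcm5 and the CDK inhibitor Cdkn1c were the 3 members (3.9%, against 3.81% of all tested) in which no R6/2 array overlapped a wild type array.

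**Figure D1:**
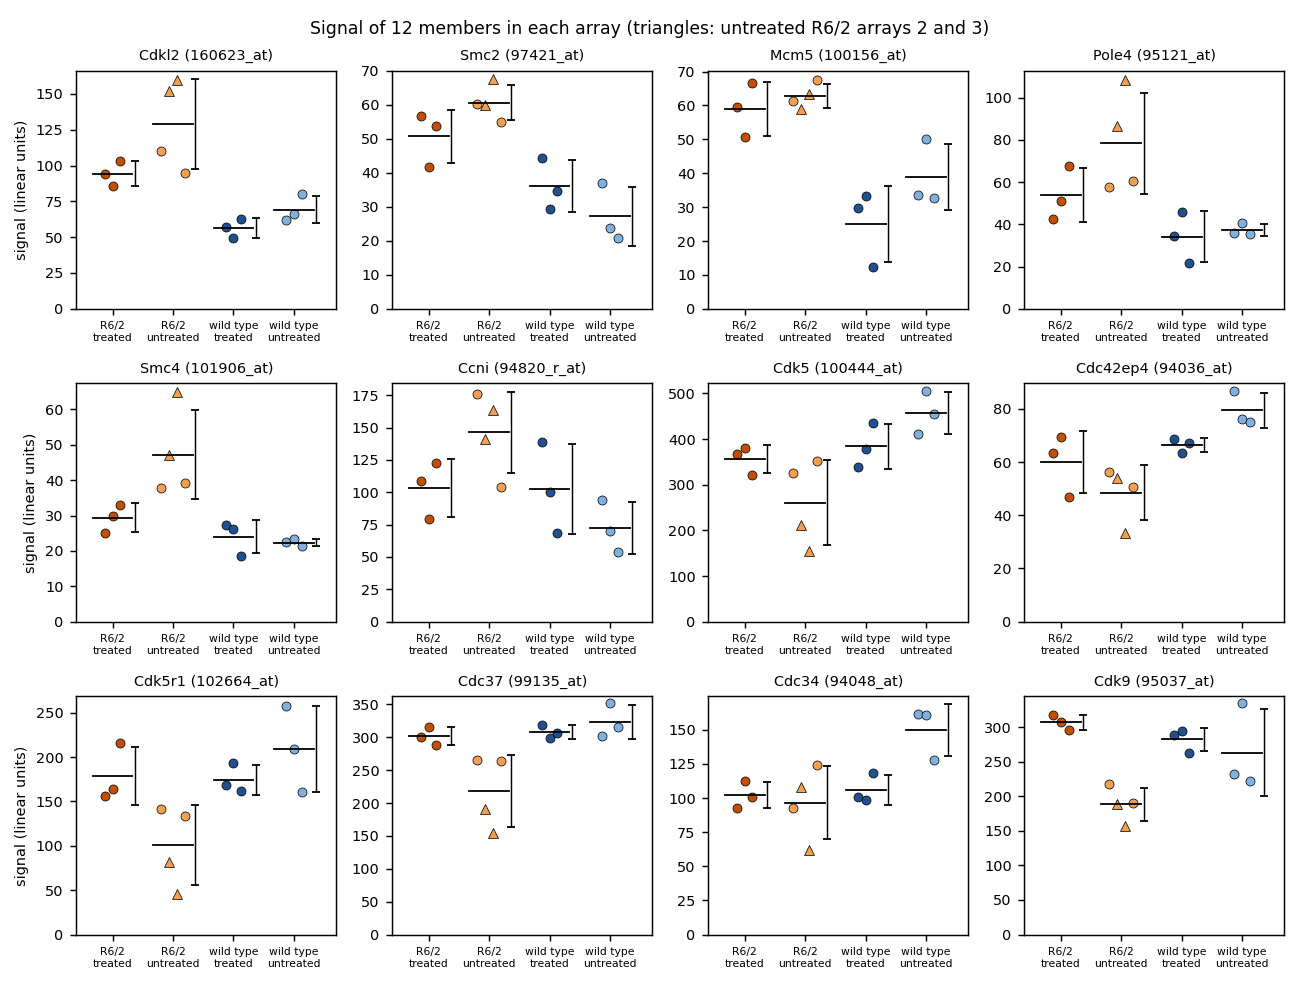
Deposited signal (linear units, vertical axes from 0) of 12 members in each array, by group, with the group mean as a line and its SD as a bar. Triangles are untreated R6/2 arrays 2 and 3. Mcm5 lies between 50.6 and 67.5 in all 7 R6/2 arrays and between 12.3 and 50.1 in the 6 wild type arrays, whereas Cdk5 is lowest in the 2 triangles, at 211.4 and 154.9.

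Among the SMC proteins, Smc2 (97421_at), an ATPase of condensin, read 56.6, 41.8 and 53.8 in treated R6/2 and 60.2, 60, 67.6 and 54.9 in untreated R6/2 arrays, against 44.3, 29.4 and 34.6 in treated and 36.9, 23.9 and 20.7 in untreated wild type arrays. Untreated groups did not overlap, and treated R6/2 array 2 lay below treated wild type array 1. The untreated difference was 1.20 ± 0.22 (log2, SE, limma adjusted p = 0.0060), 2.30-fold, and 1.13 without untreated R6/2 arrays 2 and 3 (adjusted p = 0.0542). Over both arms Smc2 was higher by 0.85 ± 0.16 (adjusted p = 0.0056), or 0.81 without those arrays (adjusted p = 0.0218).

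Smc4 (101906_at), the partner of Smc2 in condensin, read 25, 29.9 and 33.1 in treated R6/2 and 37.8, 47, 65 and 39.2 in untreated R6/2 arrays, against 27.2, 26.1 and 18.6 in treated and 22.4, 23.4 and 21.3 in untreated wild type arrays. All 4 untreated R6/2 arrays lay above the rest, with array 3 highest, and the treated groups overlapped. Its untreated difference was 1.05 ± 0.23 (adjusted p = 0.0152) and its averaged one 0.67 ± 0.17 (adjusted p = 0.0292). With untreated R6/2 arrays 2 and 3 left out these were 0.78 (adjusted p = 0.117) and 0.54 (adjusted p = 0.0874). Wild type signals of Smc4 lay about the brightness filter of 24.9, so that its being tested leaned on the higher untreated R6/2 arrays. When no filter was set, Smc4 passed in untreated mice (limma adjusted p = 0.0309) and over both arms (limma adjusted p = 0.0456). The cohesin ATPase Smc3 did not pass (0.27 untreated, 0.37 treated), with untreated R6/2 arrays 2 and 3 at 102.7 and 105.4 and array 1 at 53.6. Smc6, of the SMC complex that works in DNA repair, was at -0.24 untreated and 0.11 treated, and over the 13 arrays read 36 to 62.1.

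Helicase subunits of the MCM family held 5 tested probe sets. All 5 had an estimate above 0 in untreated mice and over both arms, and 4 did under treatment, at medians of 0.18, 0.11 and 0.18. Of all tested probe sets, 54.3% had an estimate above 0 in untreated mice, 56.5% over both arms and 56.1% under treatment. Mcm5 (100156_at), a subunit of the replicative helicase, passed over both arms. It read 59.4, 50.6 and 66.6 in treated R6/2 and 61.4, 59, 63.3 and 67.5 in untreated R6/2 arrays, against 29.7, 33.2 and 12.3 in treated and 33.5, 50.1 and 32.8 in untreated wild type arrays. Every R6/2 array was above every wild type array, although treated R6/2 array 2 and untreated wild type array 2 nearly met. The averaged difference was 1.03 ± 0.21 (adjusted p = 0.0087), 2.05-fold, and 1.05 without untreated R6/2 arrays 2 and 3 (adjusted p = 0.0252). Within the arms it was 1.35 ± 0.31 under treatment (adjusted p = 0.0557) and 0.72 in untreated mice (adjusted p = 0.106).

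The second Mcm5 probe set, 162102_r_at, was below the brightness filter and did not follow this order, with 18.5, 10.1 and 15.1 in treated R6/2 and 15.1, 20.6, 33.3 and 16.4 in untreated R6/2 arrays, against 26.3, 17.1 and 48.8 in treated and 4.8, 24.3 and 11.4 in untreated wild type arrays. Helicase subunits Mcm2, Mcm3, Mcm4 and Mcm7 had averaged estimates of 0.09, 0.09, 0.11 and 0.30, none past the threshold, and Mcm3ap, a nuclear protein of messenger RNA export, 0.05. A dimmer Mcm3 probe set (100062_at), at 3.1 to 17.1, passed only when no brightness filter was set (averaged 0.97, adjusted p = 0.0295). Mcm6 read 0.8 to 14.7 and Mcm10, an initiation factor outside the ring, 1.5 to 9.9. Origin recognition gave 3 tested probe sets, Orc4, Orc5 and Orc6, with averaged estimates from -0.02 to 0.11 and none called. Orc4 was at 123 and 116.7 in untreated R6/2 arrays 2 and 3 and at 72.4 to 100.7 in the other 11.

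Polymerase epsilon's small histone-fold subunit Pole4 (95121_at) read 42.4, 51.1 and 67.6 in treated R6/2 and 57.9, 86.8, 108.5 and 60.7 in untreated R6/2 arrays, against 34.6, 46 and 21.7 in treated and 36, 40.5 and 35.3 in untreated wild type arrays. All untreated R6/2 arrays were above all wild type arrays, while treated R6/2 array 1 lay under treated wild type array 2. The untreated difference was 1.03 ± 0.27 (adjusted p = 0.0282) and the averaged one 0.86 ± 0.20 (adjusted p = 0.0185). With untreated R6/2 arrays 2 and 3 left out they were 0.67 (adjusted p = 0.236) and 0.68 (adjusted p = 0.0611). A second set, 95122_g_at, gave 0.73 and 0.60 (adjusted p = 0.073 and 0.0695), and its partner subunit Pole3 (160743_at) read 166.4 to 240.2 with an averaged estimate of 0.17.

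The polymerase subunits did not move together, with untreated estimates of the 10 tested probe sets, both Pole4 sets included, between -1.74 and 1.03 at a median of -0.10. Pold2 (98155_r_at), an accessory subunit of polymerase delta, read 49.8, 43.3 and 46.1 in treated R6/2 and 57.1, 54.4, 33.3 and 79.2 in untreated R6/2 arrays, against 66.4, 89.7 and 106.2 in treated and 66.7, 66.6 and 63.1 in untreated wild type arrays. Treated groups did not overlap and untreated ones did. Its difference was -0.89 ± 0.25 under treatment (adjusted p = 0.161) and -0.59 over both arms (adjusted p = 0.0571), the second being -0.43 without untreated R6/2 arrays 2 and 3 (adjusted p = 0.105). Pola2, the regulatory subunit of polymerase alpha, had untreated estimates of -1.74 (161739_r_at, adjusted p = 0.0591) and -0.52 (98006_at, adjusted p = 0.0888), and the 2 tested sets of Pold1, the catalytic subunit of delta, pointed opposite ways at -0.11 and 0.54.

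**Figure D2:**
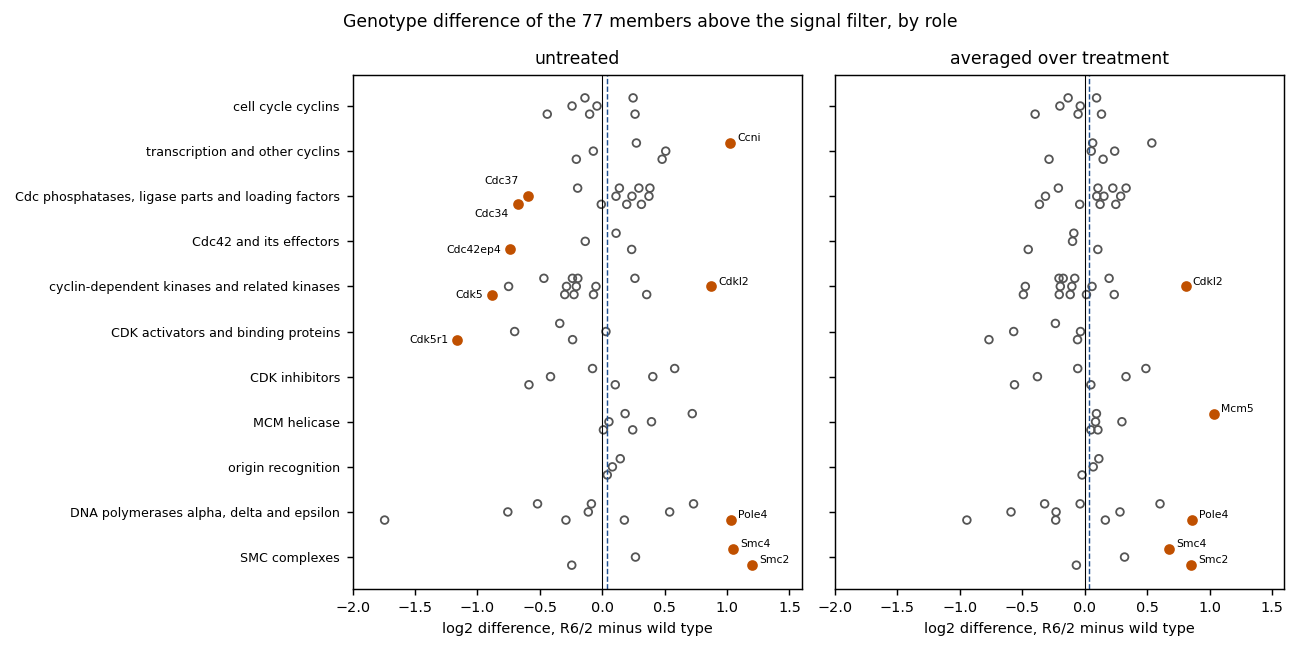
Genotype difference (log2, R6/2 minus wild type, horizontal axes) of the 77 tested members, 1 point a probe set, in rows by role, in untreated mice on the left and averaged over treatment on the right. Mcm3ap stands in the MCM row, Ccndbp1 in that of the cell cycle cyclins and Cdkn2aipnl in that of the CDK inhibitors. Filled points passed an adjusted p of 0.05 and the dashed line is the median of all tested probe sets, 0.04 in both panels; 5 members pass upward and 5 downward on the left, and 5 upward on the right.

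Among the cyclins that drive the cell cycle, grouped with Ccndbp1, a binding protein of D cyclins, none of the 7 tested probe sets passed in any of the 7 comparisons. Of all tested probe sets 11.9% passed between genotypes in untreated mice, 0.792% under treatment, 6.61% over both arms and 0% in the other 4, so a count of 0 among 7 does not set this group apart. Their untreated estimates ran from -0.44 for Ccnd3 to 0.26 for the 94231_at set of Ccnd1, both D cyclins of the G1 phase. Ccna2, the S phase cyclin, read 52.4 to 102.1, Ccnb2, a mitotic cyclin, 69.6 to 104.7, and Ccne1, which opens S phase, 103.2 to 247.3. Ccndbp1 read 279.8 to 395.8 with the groups overlapping. Dimmer were Ccna1 (0.8 to 13.4), Ccnd2 (4.2 to 39.6) and Ccne2 (2.4 to 6.8).

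Cyclin I, an atypical cyclin found in cells that no longer divide, was read by 2 tested sets. The dimmer one, 94820_r_at, read 108.5, 79.1 and 123 in treated R6/2 and 175.7, 141.5, 164 and 104.3 in untreated R6/2 arrays, against 138.7, 100.2 and 68.6 in treated and 93.8, 69.8 and 53.5 in untreated wild type arrays. Untreated groups did not overlap and treated groups did. The untreated difference was 1.03 ± 0.26 (adjusted p = 0.0237), or 0.94 without untreated R6/2 arrays 2 and 3 (adjusted p = 0.139), and the treated one 0.05. The brighter set, 94819_f_at, at 449.4 to 913.8, gave 0.48 (adjusted p = 0.0586) in untreated and 0.00 in treated mice. Its 2 highest values, 708.7 and 913.8, were untreated R6/2 arrays 2 and 3, as were those of Ccng2, a cyclin linked to cell cycle arrest (275.1 and 339.9, against 137 to 202.6 in the other 11 arrays, untreated estimate 0.51). Cyclins C, G1 and T1 did not pass, with untreated estimates of 0.27, -0.21 and -0.07.

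Of the 14 tested probe sets of CDKs and related kinases, 1 passed downward and 1 upward in untreated mice (14.3%, against 11.9% of all tested), and 3 had an estimate above 0 (21.4%, against 54.3%). Cdkl2 (160623_at), a kinase resembling CDKs that is expressed in neurons, read 94, 85.6 and 103.3 in treated R6/2 and 110.2, 152, 159.6 and 95.1 in untreated R6/2 arrays, against 57.1, 49.3 and 63 in treated and 62.1, 65.9 and 79.8 in untreated wild type arrays. All 7 R6/2 arrays were above all 6 wild type arrays, with untreated R6/2 arrays 2 and 3 the highest. The difference was 0.87 ± 0.18 in untreated mice (adjusted p = 0.0127) and 0.74 ± 0.20 under treatment (adjusted p = 0.132). Over both arms it was 0.81 ± 0.13 (adjusted p = 0.0026, 95% interval 0.52 to 1.10), 1.75-fold. Leaving out untreated R6/2 arrays 2 and 3 gave 0.57 in untreated mice (adjusted p = 0.0951), 0.74 under treatment (adjusted p = 0.0265) and 0.66 over both arms (adjusted p = 0.0049).

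Cdk5 (100444_at) read 368.2, 380.7 and 321 in treated R6/2 and 326.2, 211.4, 154.9 and 351.3 in untreated R6/2 arrays, against 338, 378.9 and 434.6 in treated and 412.3, 504.4 and 454.6 in untreated wild type arrays. Untreated groups did not overlap, and untreated R6/2 arrays 2 and 3 lay below every other array. The untreated difference was -0.88 ± 0.22 (adjusted p = 0.0248), 0.543-fold, and -0.43 without those 2 arrays (adjusted p = 0.112). Under treatment it was -0.10. Its activator Cdk5r1 (102664_at) had the same 2 arrays lowest, reading 155.7, 163.9 and 216.2 in treated R6/2 and 141.6, 81.5, 46.1 and 133.9 in untreated R6/2 arrays, against 168.7, 193.2 and 161.2 in treated and 257.7, 209.5 and 160.7 in untreated wild type arrays. The untreated difference was -1.16 ± 0.31 (adjusted p = 0.0282), -0.58 without the 2 arrays (adjusted p = 0.131) and 0.02 under treatment. Probe sets for other Cdk5 partners, 2 for Cdk5rap3 and, too dim to test, 1 for Cdk5r2 (3.1 to 32.6), made no call.

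Cdk16, a kinase related to Cdk5 by sequence and present in neurons, read 172.8 and 107.8 in untreated R6/2 arrays 2 and 3 and 245.6 to 349.9 in the other 11 (untreated estimate -0.75, adjusted p = 0.0702, and -0.22 without those arrays). The opposite was seen for Cdk14, which pairs with cyclin Y, where set 93421_at was at 346.8 and 454.1 in those arrays and at 219.4 to 307.7 elsewhere. Both tested sets of Cdk4, the kinase of D cyclins, had estimates near 0 over both arms (-0.08 and 0.01). Cdk2 read 17.6 to 32.9, Cdk7, the CDK-activating kinase, 40.8 to 99.3, Cdk18 98 to 165.2, and Cdk11b, a kinase of transcription and splicing, 89.1 to 132.1 in its brighter set (95805_at). Of the CDK-binding proteins, Cdk2ap1 and Cdk2ap2 had untreated estimates of -0.34 and -0.24 and were not called.

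Among genes first named for yeast division mutants, Cdc37 (99135_at), the co-chaperone that delivers kinases to the heat shock protein Hsp90, read 300.5, 316.2 and 288.4 in treated R6/2 and 265.3, 191.2, 155.1 and 264 in untreated R6/2 arrays, against 319.3, 298.9 and 306.8 in treated and 302.7, 352.4 and 315.3 in untreated wild type arrays. The 4 untreated R6/2 arrays were the lowest 4 of the 13, and the untreated difference was -0.60 ± 0.16 (adjusted p = 0.0338), or -0.29 without arrays 2 and 3 (adjusted p = 0.163). Cdc34 (94048_at), which passes ubiquitin to CDK inhibitors through the SCF ligase, read 93, 112.3 and 101 in treated R6/2 and 92.5, 107.8, 61.6 and 124.2 in untreated R6/2 arrays, against 100.9, 98.3 and 118.4 in treated and 161.3, 160.7 and 127.8 in untreated wild type arrays. Here the untreated wild type arrays were the 3 highest of the 13. The difference was -0.67 ± 0.20 (adjusted p = 0.0427), and -0.48 without untreated R6/2 arrays 2 and 3 (adjusted p = 0.151).

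Cdc42ep4 (94036_at) read 63.3, 69.6 and 47 in treated R6/2 and 56.2, 53.9, 33.3 and 50.6 in untreated R6/2 arrays, against 68.7, 63.5 and 67.1 in treated and 86.9, 76.4 and 75.1 in untreated wild type arrays. Untreated groups did not overlap, and the difference was -0.74 ± 0.19 (adjusted p = 0.0268), or -0.57 without untreated R6/2 arrays 2 and 3 (adjusted p = 0.115). Cdc42 itself, the GTPase of cell polarity, did not pass (0.24), with 315.7 and 327.2 in untreated R6/2 arrays 2 and 3 and 173.3 to 267.5 in the other 11. Parts of the anaphase-promoting ligase and its activator made no call, with averaged estimates of 0.12 for Cdc16, 0.11 for Cdc26, 0.23 for Cdc23 and 0.25 for Cdc20. Replication kinase Cdc7 and the helicase cofactor Cdc45 were at -0.04 and -0.21, and Cdc6, which loads the helicase, was too dim to test at 17.3 to 30.4.

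The CDK inhibitors were grouped with Cdkn2aipnl, a gene of other function, and none of the 6 tested probe sets of this group passed in any comparison. Of all tested probe sets 11.9% did in untreated mice. Cdkn1c (95471_at), an imprinted inhibitor of the Cip/Kip family, read 34.5, 55.4 and 38.7 in treated R6/2 and 37.3, 36.7, 60.3 and 44.7 in untreated R6/2 arrays, against 33.5, 30.9 and 31.1 in treated and 33.8, 25.6 and 29.1 in untreated wild type arrays. The R6/2 arrays all lay above the wild type arrays, narrowly at the closest pair, and the averaged difference was 0.49 (adjusted p = 0.0852), or 0.44 without untreated R6/2 arrays 2 and 3 (adjusted p = 0.147). Cdkn1a, a target of p53 in the same family, had averaged estimates of -0.38 and -0.56 in its 2 sets (adjusted p = 0.14 and 0.121), which came to -0.24 and -0.42 without those arrays. Members of the INK4 family, which bind the D cyclin kinases, were at 0.05 for Cdkn2d and 0.33 for Cdkn2c.

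**Figure D3:**
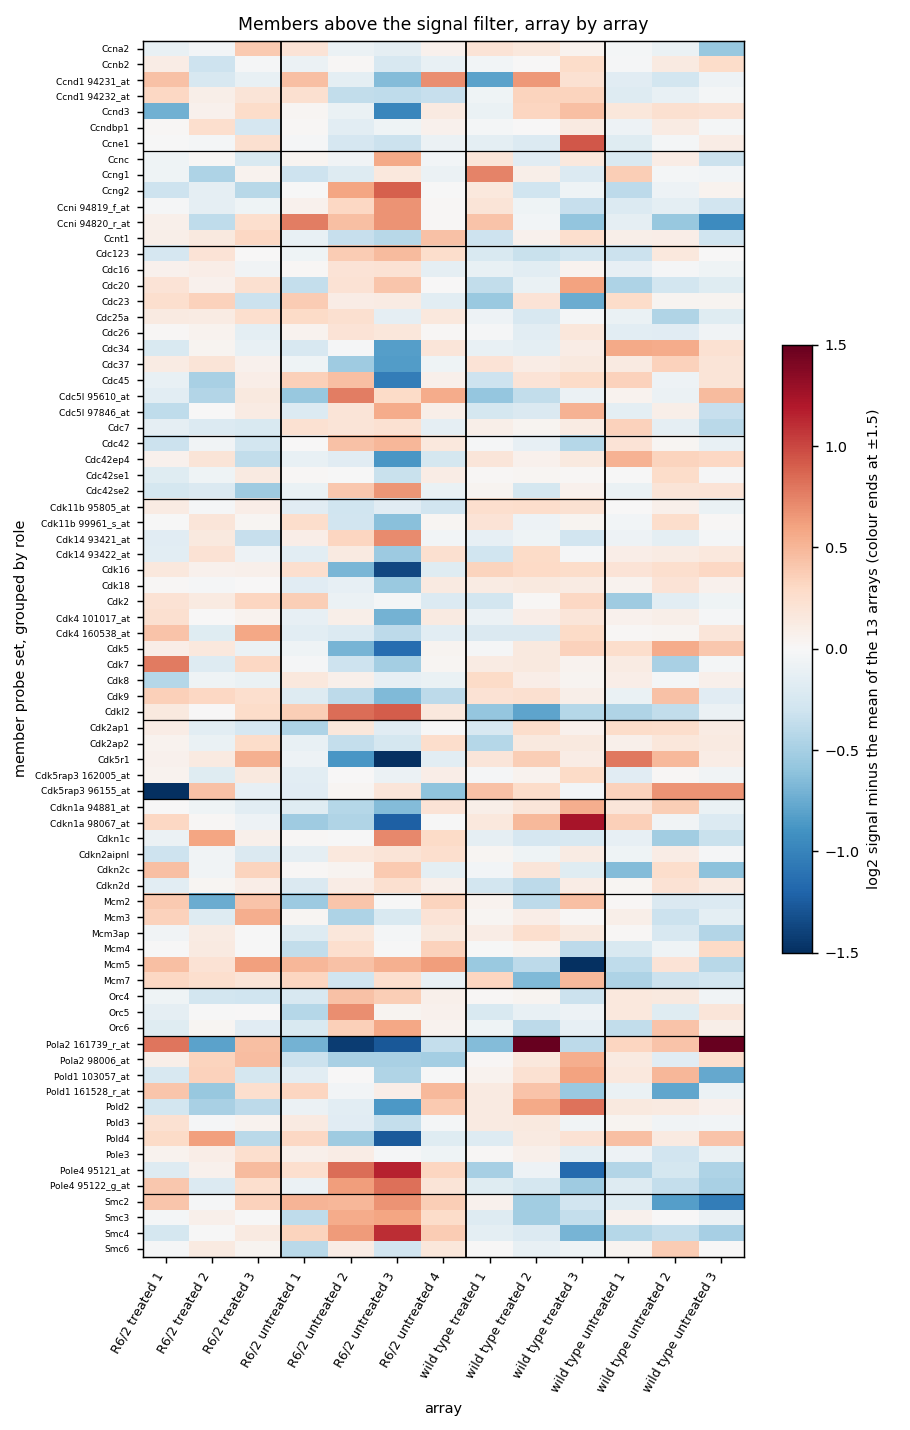
Log2 signal of the 77 tested members (rows, grouped by role) in each of the 13 arrays (columns, grouped by genotype and treatment), minus the mean of the 13 arrays, with colour ending at 1.5 either way. Untreated R6/2 arrays 2 and 3 carry the strongest colours, both outside the other 11 arrays in 27 members, while Mcm5 is higher in every R6/2 column than in any wild type one. Smc2 is so too, except that treated R6/2 array 2 lies below treated wild type array 1.

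The calls rest on single arrays to different degrees. Smc2 passed in untreated mice with any 1 array left out. Cdkl2 was lost without untreated wild type array 2 (0.84, adjusted p = 0.0567), and Smc4 without untreated wild type arrays 2 (1.08, adjusted p = 0.0546) or 3 (1.01, adjusted p = 0.0633). Ccni was lost without untreated wild type arrays 2 or 3 or untreated R6/2 arrays 2 or 3 (adjusted p = 0.0521 to 0.111). Cdk5 and Cdk5r1 were lost without any 1 untreated wild type array or without untreated R6/2 array 2 (adjusted p = 0.0516 to 0.101 and 0.0562 to 0.1), and Cdc42ep4 without any 1 untreated wild type array (0.0779 to 0.0901). Pole4 and Cdc37 were lost without any 1 untreated wild type array or without untreated R6/2 arrays 2 or 3 (0.0734 to 0.0959 and 0.058 to 0.124). Cdc34 passed in 2 of the 13 fits that leave out 1 array.

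Over both arms Cdkl2, Smc2 and Mcm5 passed with any 1 array left out, at 0.75 to 0.88, 0.76 to 0.97 and 0.81 to 1.17. Pole4 was lost without treated R6/2 array 3 (0.77, adjusted p = 0.0562). Smc4 was lost in 7 of those 13 fits, without any 1 untreated wild type array, treated wild type array 3, untreated R6/2 array 2 or treated R6/2 arrays 2 or 3 (adjusted p = 0.0538 to 0.075).

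**Figure D4:**
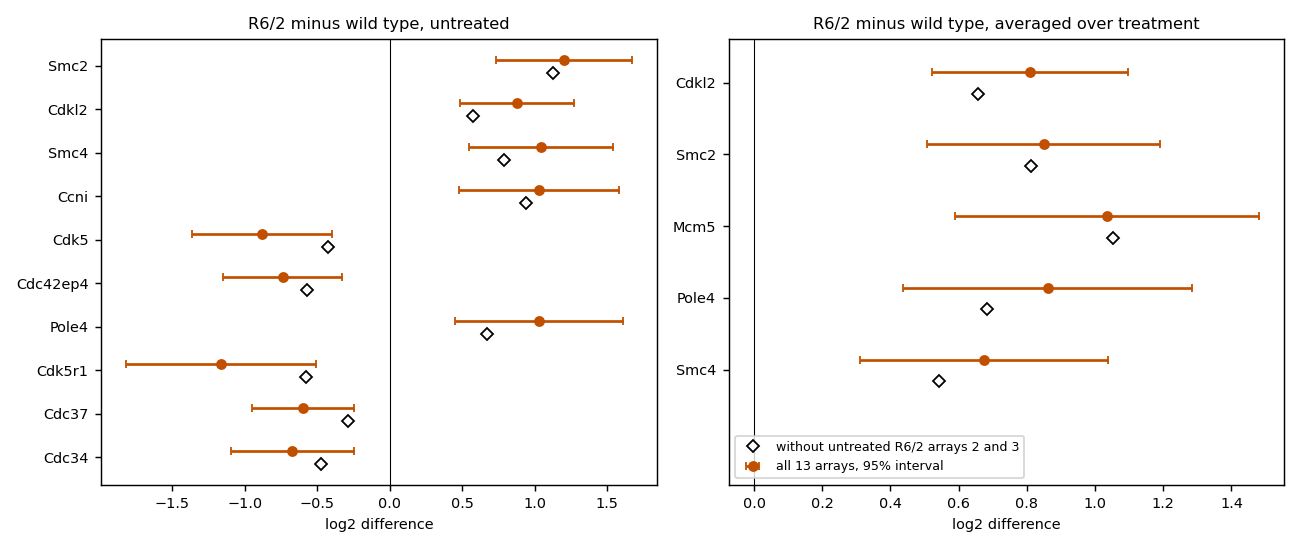
Genotype difference (log2, R6/2 minus wild type, horizontal axes) of the members that passed, in untreated mice on the left and averaged over treatment on the right. Filled circles with 95% intervals use all 13 arrays and open diamonds leave out untreated R6/2 arrays 2 and 3; Cdk5 goes to -0.43 and Cdk5r1 to -0.58 on the left, while Mcm5 stays at 1.05 on the right.

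In mice given the triple treatment no member passed between genotypes, against 0.792% of all probe sets, and 6 (7.79%, against 9.19%) had an unadjusted p below 0.05. The smallest p-values belonged to Mcm5, Cdkl2, Pold2, Cdk8 of the Mediator complex (-0.34 ± 0.14, adjusted p = 0.439) and Pole4 (0.69 ± 0.29, adjusted p = 0.466). Without untreated R6/2 arrays 2 and 3, which changes only the shared spread here, Cdkl2 (0.74, limma adjusted p = 0.0265) and Pold2 (-0.89, adjusted p = 0.0299) passed, as did 1.6% of all probe sets. Pold2 also passed without array 3 alone (limma adjusted p = 0.0342), where 1.27% of all did. Mcm5 passed without treated wild type array 2 (1.61, adjusted p = 0.036). In 13 members (16.9%, against 16.8% of all) the treated groups did not overlap, and the untreated groups did not in 24 (31.2%, against 26.2%). The sign of the genotype estimate was the same in both arms for 49 of 77 members (63.6%), against 57.2% of all tested probe sets. All 5 members called lower in untreated R6/2 mice had treated estimates between -0.17 and 0.02. Of the 5 called higher, Ccni was likewise near 0 under treatment (0.05), and Smc2, Cdkl2, Smc4 and Pole4 had 0.50, 0.74, 0.30 and 0.69.

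**Figure D5:**
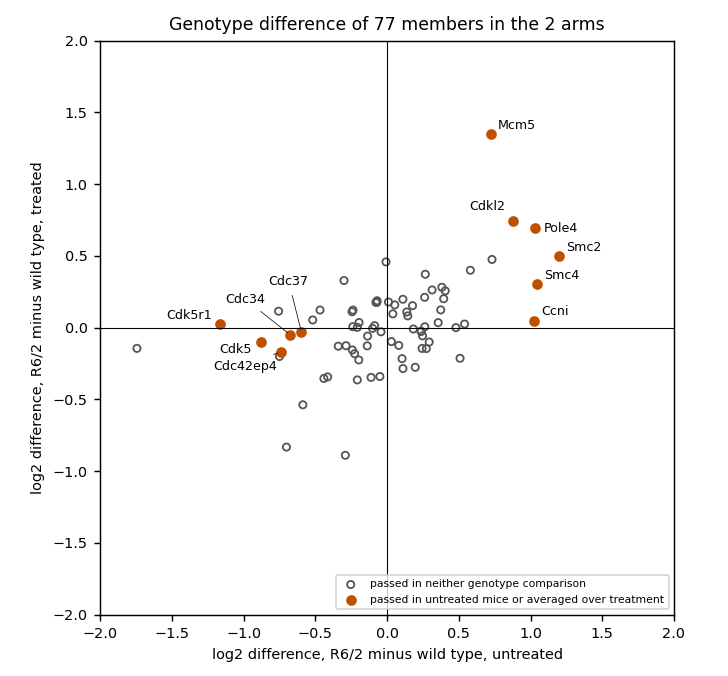
Genotype difference (log2, R6/2 minus wild type) of the 77 tested members in untreated mice (horizontal axis) and in mice given the triple treatment (vertical axis), from separate arrays. Named filled points passed in untreated mice or over both arms; Cdkl2, Pole4, Mcm5, Smc2 and Smc4 lie to the upper right, Ccni lies along the horizontal line on the right at a treated estimate of 0.05, and Cdk5r1, Cdk5, Cdc34, Cdc37 and Cdc42ep4 lie along it on the left, at -0.17 to 0.02.

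Treatment was then compared within each genotype. No member and no other probe set (0%) passed by limma in R6/2 mice, in wild type mice or over both genotypes. At an unadjusted p below 0.05 there were 20 members in R6/2 mice (26%, against 16.9% of all), 4 in wild type mice (5.19%, against 10.3%) and 12 over both (15.6%, against 12.6%). The smallest p in R6/2 mice was that of Cdk9 (95037_at), the kinase of transcription elongation, which read 317.3, 308 and 295.6 in treated R6/2, against 217, 188.8, 157.2 and 189.5 in untreated R6/2 arrays, and 289, 294.3 and 263.1 in treated, against 232.3, 335.5 and 221.4 in untreated wild type arrays. The R6/2 groups did not overlap and the wild type groups did. Its difference was 0.72 ± 0.15 in R6/2 mice (adjusted p = 0.246), 0.60 without untreated R6/2 arrays 2 and 3, and past the threshold only without untreated R6/2 array 1 (0.79, adjusted p = 0.0296).

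Pola2 (98006_at) read 37.2, 44.2 and 48.5 in treated, against 28.1, 25.1, 25.1 and 24.6 in untreated R6/2 arrays, without overlap (0.74 ± 0.19, adjusted p = 0.246, and 0.71 without arrays 2 and 3). Next were Cdc42 (-0.49 ± 0.15), Ccng2 (-0.65 ± 0.21) and Cdk5r1 (0.94 ± 0.31), each at an adjusted p of 0.247, which came to -0.30, -0.28 and 0.36 without those arrays. The R6/2 groups did not overlap in 11 members (14.3%, against 10.6% of all) and the wild type groups in 7 (9.09%, against 21.8%). In wild type mice the smallest p-values were those of Mcm3ap (0.39 ± 0.15, adjusted p = 0.416), Mcm5 (-0.73 ± 0.31, 0.437), Cdc34 (-0.50 ± 0.21, 0.445), Cdk11b (0.26 ± 0.12, 0.479) and Ccna2 (0.37 ± 0.18, 0.489). Over both genotypes Cdk9 (0.42 ± 0.11), Cdk11b (0.28 ± 0.08), Cdc42 (-0.36 ± 0.11), Pola2 (0.46 ± 0.14) and Ccnd1 (94232_at, 0.36 ± 0.12) led, at adjusted p of 0.252 to 0.291, and in no member (0%, against 0.322% of all) did treated and untreated arrays separate.

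The genotype and treatment comparisons share the untreated R6/2 arrays, so the members' values in both are only set side by side. The difference of the treatment effects between genotypes (interaction) passed for no member and no other probe set, and 10 members (13%, against 13.5%) had an unadjusted p below 0.05. Led by Cdk9 (0.59 ± 0.22, adjusted p = 0.316) and Cdk5r1 (1.18 ± 0.45, adjusted p = 0.316), the 5 smallest p-values also included Ccni (94820_r_at, -0.98 ± 0.38), Cdk4 (160538_at, 0.63 ± 0.26) and Ccng2 (-0.72 ± 0.31). Without untreated R6/2 arrays 2 and 3 the estimates for Cdk9, Cdk5r1 and Ccng2 were 0.47, 0.60 and -0.34. That the lower genes and Ccni passed in untreated and not in treated mice is thus not shown to be a difference between the arms.

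A list of 60 further genes of the cell cycle and replication was set beside the members, of which 49 had a probe set of their own and 27 were bright enough to test. In untreated mice 3 were higher in R6/2 hemispheres and none lower (11.1%, against 11.9% of all tested probe sets, 5.49% higher), at a median estimate of 0.26 against 0.04 for all tested. The share called was thus near that of all probe sets. Rad21, the subunit that closes the cohesin ring, read 524.6, 614.5 and 515.6 in treated R6/2 and 558.8, 598.4, 752.5 and 519.2 in untreated R6/2 arrays, against 504.3, 439.9 and 418.6 in treated and 468.5, 413 and 437.2 in untreated wild type arrays. All 7 R6/2 arrays were above all 6 wild type arrays, and Rad21 passed in untreated mice (0.45 ± 0.13, adjusted p = 0.0411) and over both arms (0.37 ± 0.10, adjusted p = 0.0356). The others were Tfdp1, the partner of E2F factors (0.90 ± 0.19, adjusted p = 0.0139), and Rbl2, a pocket protein that restrains E2F (0.79 ± 0.24, adjusted p = 0.0444). Without untreated R6/2 arrays 2 and 3 none of the 27 passed in any comparison, Rad21 being at 0.30 in untreated mice (adjusted p = 0.206) and 0.29 over both arms (adjusted p = 0.0556), Tfdp1 at 0.53 (0.0614) and Rbl2 at 0.64 (0.219). Estimates were above 0 for 21 of the 27 over both arms (77.8%, against 56.5% of all tested) and for 18 in untreated mice (66.7%, against 54.3%), and none passed under treatment, between treatments or in the interaction.

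Agreement between probe sets of 1 gene was partial. Of the 22 member genes with several probe sets, 11 had several that were tested, and their untreated estimates had the same sign in 7, as did their averaged estimates in 7. Both sets pointed the same way over both arms for Ccni, Cdc5l, Cdk11b, Cdk5rap3, Cdkn1a, Pola2 and Pole4 and opposite ways for Ccnd1, Cdk14, Cdk4 and Pold1. Levels of different probe sets are not comparable on this platform, since each set binds its target with its own strength. Among the 34 dimmer members were the mitotic kinase Cdk1, its activating phosphatase Cdc25c, the CDK inhibitor Cdkn1b, Cdkn3, a phosphatase of CDKs, the origin recognition subunits Orc1 and Orc2, and the polymerase subunits Pola1 and Pole2. Tested without the brightness filter, none of the 34 passed in untreated mice, and 1, the dimmer Mcm3 set, passed under treatment and over both arms.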

How the data were processed

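The deposited values are linear signal intensities per probe set, from 1 Affymetrix array per sample; the software behind them and their scaling are not given in the sources used here. With the top and bottom 2% of values left out, the array means are 100.047 to 100.128. Array medians were 39.6 to 45.1, at most 6.73% from their mean, and no further normalization was made. Here intensities under 3.1, the 10th percentile, were set to 3.1 and log2 was taken. Without the 66 controls, 12422 probe sets remained, of which 7453 (5676 genes) at or above the 40th percentile of mean log2 (a signal of 24.9) were tested. In the annotation 10833 probe sets have 1 gene, 396 several and 1193 none, and all 111 members matched a RefSeq symbol. A mean per group was fitted over all 13 arrays with limma 3.58.1 in R 4.3.3 (variance trend on, 7 comparisons), with Benjamini-Hochberg adjustment over all tested probe sets, and the script was tested on simulated data. Values after ± are SEs of log2 differences.

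Every member past an adjusted p of 0.05 is named, or else the 5 with the smallest p, with levels for the 3 brightest members of each role. The members, the list of 60 further genes and the marker lists were chosen with earlier results of these data known. Alternatives were another floor, an added offset, quantile normalization, other filters, fits on the compared groups alone, no variance trend, array weights and arrays left out. Arrays have no read depth; precision is set by the number of arrays. Protein sequences and the Smc4 promoter were not used here.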

Additional observations from a re-analysis of the deposited data

Results flagged for a closer look

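Of the 22 probe sets named in the comparisons, 2 had 1 untreated R6/2 array far from the other 3, and such a gap arises by chance in about 1 in 20 groups. Ccnd1 (94232_at), a D cyclin, read 182.7 in untreated R6/2 array 1, whereas the nearest of the other 3 was 121.3, so that the gap took 0.962 of the group's range. Pola2 (98006_at), a polymerase alpha subunit, read 28.1 in the same array, with the nearest other at 25.1 and a gap of 0.857 of the range. Neither gene passed a comparison with all arrays.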

How the results depend on the processing

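With all 13 arrays 10 members passed between genotypes in untreated mice (11.9%), 0 under treatment (0.792%) and 5 over both arms (6.61%). Percentages here are shares of all tested probe sets that passed in the same fit. In untreated mice the count became 3 without the brightness filter (4.12%) and 6 with only the compared groups in the fit (3.26%). It became 0 without untreated R6/2 arrays 2 and 3 (2.19%). Under treatment it became 1 with the floor at 20 (1.05%), with 16 added before log2 (0.966%) and without the filter (0.564%). It became 3 with array weights (2.79%) and 2 without untreated R6/2 arrays 2 and 3 (1.6%). Over both arms it became 1 with a filter at the 60th percentile (8.77%), where fewer probe sets are tested, and 12 with array weights (12.5%). Leaving out untreated R6/2 arrays 2, 3 and 4 leaves 1 array in that group, assumed to vary like the arrays of the other groups. In that fit Cdkl2, Smc2 and Mcm5 were at 0.71, 0.85 and 1.02 over both arms. Leaving out 1 array at a time gave counts of 1 to 15 in untreated mice (2.11% to 17.5%). The lowest were 1, 2 and 4 without untreated wild type arrays 2, 3 and 1 (2.11%, 2.95% and 5.26%), and 4 without untreated R6/2 array 2 (5.33%). Under treatment the counts were 0 to 1 (0.268% to 1.27%). Over both arms they were 3 to 10, with 3 without treated R6/2 array 3 (3.84%) and 10 without untreated R6/2 array 1 (9.45%). Between treatments in R6/2 mice they were 0 to 1 (0% to 1.56%). Beyond the fewer probe sets and arrays named, the cause of these changes was not tested. The counts of the other treatment comparisons and the interaction were 0 under every setting run, where at most 1.61% of all probe sets passed. Of the values of named members under the alternatives, 773 kept direction and side of the threshold, 88 lost and 10 gained it, and 0 turned round; 14 named results could not be tested under the stricter filter. Leaving out arrays 2, 3 and 4 together was chosen after seeing the data. No paired analysis was possible because the labels give no replicate numbers shared between groups.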
